A study of Mus musculus with 8 samples.

Results

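Small nucleolar RNAs (snoRNAs) and small Cajal body RNAs (scaRNAs) were examined through every gene symbol that begins with Snord, Snora or Scarna. This rule gave 147 of the 55291 genes counted, with 98 C/D genes (Snord), 40 H/ACA genes (Snora) and 9 Cajal body genes (Scarna). The libraries came from mouse embryonic stem cells, labelled E14, in which either DHX35 or GPATCH1 carries a dTAG degron at its own locus. The tag is FKBP12 F36V, and dTAG-13 is the small molecule that binds it and brings the tagged protein to an E3 ubiquitin ligase. DHX35-dTAG and GPATCH1-dTAG cells were each given DMSO or 200 nM dTAG-13 for 4 h, and each of the 4 groups had 2 libraries. The edited cells were grown from single colonies, and the labels do not say which clone a library came from or whether replicates were separate cultures, so p-values measure the spread between these libraries, which may be technical. Pou5f1 (702 to 1087 CPM), Nanog (467 to 592 CPM) and Sox2 (228 to 284 CPM), defining markers of embryonic stem cells, were present in all 8 libraries, where CPM are counts scaled to the size of the library after TMM normalization.

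C/D snoRNAs pair with ribosomal RNA and direct 2′-O-methylation by fibrillarin, while H/ACA snoRNAs direct pseudouridylation by dyskerin. A few members of each class do not modify bases but are needed to cut the ribosomal RNA precursor. ScaRNAs are guides of either kind that are retained in Cajal bodies and act on the spliceosomal RNAs. In mammals most of these RNAs lie in introns of host genes and are released after splicing and debranching, and some, such as U3, U8 and U13, have promoters of their own. DHX35 is an RNA helicase and GPATCH1 its G-patch partner, and both act on the spliceosome.

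Of the 147 genes, 72 had a count in at least 1 library, and 53 of these passed the expression filter of edgeR (33 C/D, 15 H/ACA and 5 Cajal body genes), among 16371 genes tested. A mean of at least 1 CPM was reached by 44 genes (26 C/D, 13 H/ACA and 5 Cajal body). The other 75 genes had no count in any library. Total counts per library ranged from 12014203 to 14994173, and TMM-scaled library sizes from 11307356 to 16138412. On the latter, 3 counts, the limit that a count of 0 allows, corresponded to between 0.186 and 0.265 CPM. One library, DHX35-dTAG DMSO replicate 1, was the least like the rest: its correlations with them averaged 0.976, and those of the other 7 averaged 0.988 to 0.990. Mitochondrial mRNAs took 0.272% of its counts, against 0.758% to 1.13% in the other 7 libraries. The comparisons between groups that use this library are therefore also given without it. The tags act on proteins, so the mRNA levels of Dhx35 and Gpatch1 do not check the depletion. Human total RNA had been mixed into the samples as a spike-in, and the counts do not show how many reads of conserved small RNAs came from it.

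The zeros followed the position of a gene in the annotation. In GENCODE M21 (build GRCm38), 54 of the 147 genes lay wholly inside an exon of another gene on the same strand, and 54 of these 54 had 0 counts in every library. For 40 of them, that exon belonged to at least 1 transcript in which an intron is retained. By contrast, 57 of 75 genes that touched no exon of another gene had counts, as did 12 of 15 genes that partly covered a same-strand exon and 3 of 3 that met only an antisense exon. Among 2733 other snoRNA, scaRNA and snRNA genes of the annotation, 92 of 93 inside a same-strand exon were at 0, against 1907 of 2578 that touched no exon. The program that assigned reads to genes is not given in the sources used here, its part in these zeros was not tested, and a count of 0 does not show that an RNA was absent. Of the 21 genes at 0 outside such exons, 16 were Snord116 copies, C/D RNAs of an imprinted locus that closely resemble each other. Their host gene Snhg14 was counted at a mean of 50.4 CPM, so the zeros do not show that the locus was silent. The remaining Snord116 copy, Snord116l11, had 1 count in 1 library. Snord64 and Snord107, from the same imprinted region, were also at 0, but both lie inside exons of Gm38393.

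**Figure D1:**
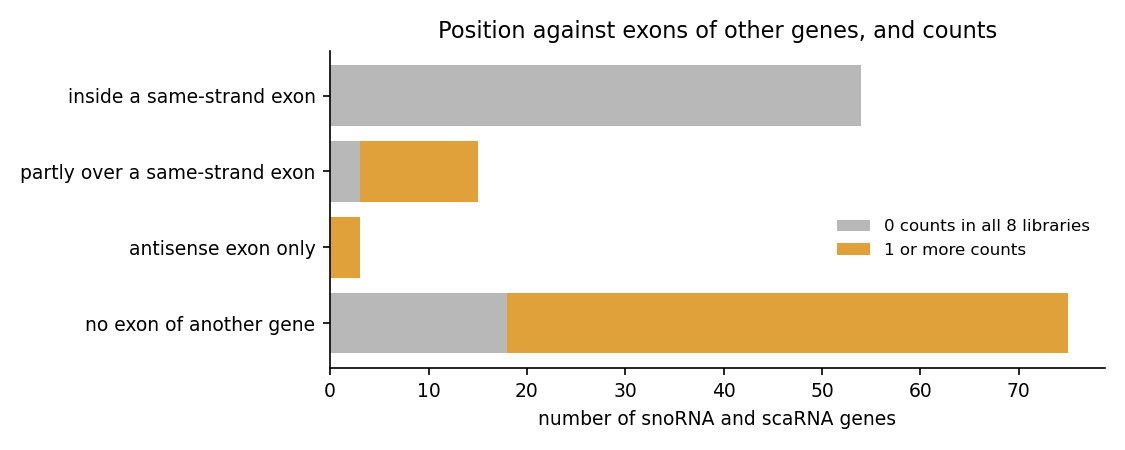
Number of snoRNA and scaRNA genes (horizontal axis) by their position against exons of other genes, split into genes with 0 counts in all 8 libraries (grey) and genes with 1 or more counts (orange). All 54 genes inside a same-strand exon are grey, while 57 of the 75 genes that touch no exon are orange.

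The split was also seen between neighbours within 1 host gene. In 6 host genes, 1 or more members lay inside an exon and others did not. The 6 members inside an exon were at 0 and the 8 members outside had counts. In Rps3, which encodes a protein of the small ribosomal subunit, Snord15b was at 0 and Snord15a had 1104 counts over the 8 libraries. Both are U15 RNAs, C/D guides for the large ribosomal RNA, and Snord15b lies in an exon of a retained-intron transcript of Rps3. Their sequences are shown because they carry the same ending and both hold the letters of the C and D boxes, while only 1 of the pair was counted. The C box letters marked here need not be the matching site in both RNAs. Capitals mark the C box (TGATGA, first match) and the D box (CTGA, last match), and the sequences are from GENCODE M21 transcripts on GRCm38, minus strand, chr7:99482785-99482932 for Snord15a and chr7:99479563-99479707 for Snord15b.
Snord15a: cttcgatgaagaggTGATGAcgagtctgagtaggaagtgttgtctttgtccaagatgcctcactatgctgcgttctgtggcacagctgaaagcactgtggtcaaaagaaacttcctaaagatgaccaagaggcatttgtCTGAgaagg
Snord15b: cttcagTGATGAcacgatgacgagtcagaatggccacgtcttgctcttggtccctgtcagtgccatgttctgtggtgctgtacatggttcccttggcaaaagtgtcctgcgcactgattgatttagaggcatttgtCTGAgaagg

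In 11 other host genes that hold more than 1 member, every member lay inside an exon, and all 27 of these members were at 0. They include the 3 members in Gas5, the 4 in Snhg12 and the 3 Snord14 genes in Hspa8, which belong to the U14 family needed for processing of the small subunit RNA. These named host genes were themselves counted, at a mean of 131 CPM for Gas5, 23.3 CPM for Snhg12 and 1828 CPM for Hspa8. The symbols matched their classes by sequence. The letters CTGA occurred in the last 15 bases of 91 of 98 C/D genes (92.9%) and of 2 of 40 H/ACA genes (5%). ACA occurred in the last 15 bases of 38 of 40 H/ACA genes (95%) and of 12 of 98 C/D genes (12.2%). Both were searched on the RNA strand only. TGATGA occurred anywhere in 74 of 98 C/D genes and in 0 of 40 H/ACA genes. Of the 9 Cajal body genes, 5 had CTGA and 5 had ACA in that window.

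Counts were concentrated in a few genes. Scarna2 took 31.3% of all counts on the 147 genes, and Scarna2, Snora73b, Snord17 and Scarna6 together took 66.8% (30.9% and 64.7% without DHX35-dTAG DMSO replicate 1). Scarna2 is a guide for methylation of U2, Scarna6 acts on U4 and U5, and Snora73b is a U17 RNA, needed to cut the precursor of the 18S ribosomal RNA. Levels of genes were compared per kilobase of gene, as means over the 7 libraries other than DHX35-dTAG DMSO replicate 1. Whether counts on RNAs as short as these scale with gene length was not tested, so the order between genes is uncertain. Snora73b was highest with 419.9 CPM per kb (521 with all 8 libraries), followed by Scarna2 with 348 (421 with all 8), Snord17 with 195 (248), Snord104 with 127 (136) and Scarna6 with 99.3 CPM per kb (120). The other C/D genes with the highest mean counts were Snord55 at 72.4 (85.0 with all 8), Snord43 at 67.1 (74.5), Snord15a at 47.2 (68.4) and Snord118 at 40.02 CPM per kb (62.8). For Snord118 including that library raised the mean 1.57 times. Among H/ACA genes, Snora17 had 66.6, Snora78 61.5, Snora23 55.2, Snora57 53.7 and Snora43 41.7 CPM per kb. With all 8 libraries this order changed, with Snora57 at 73.0, Snora23 at 70.6, Snora17 at 69.8, Snora78 at 63.1 and Snora43 at 40.9 CPM per kb. The remaining Cajal body genes were Scarna9 with 98.97, Scarna13 with 40.4, Scarna17 with 20.4 and Scarna8 with 3.12 CPM per kb (104, 39.5, 23.7 and 3.29 with all 8). Scarna3a had 7 counts in all, and Scarna10 and Scarna3b had none.

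Summed over a class, DHX35-dTAG DMSO replicate 1 was above the other 7 libraries for all 3 classes. The C/D genes summed to 337 CPM in this library and to between 123 and 150 CPM in the other 7, which was 2.62 times their median. The H/ACA genes summed to 364 CPM, against 127 to 159 CPM, or 2.41 times the median. The Cajal body genes summed to 480 CPM, against 177 to 210 CPM, or 2.54 times the median. The other 7 libraries were close to each other, with a coefficient of variation of 6.83% for C/D, 9.05% for H/ACA and 6.59% for Cajal body genes. In percent of all counts, the 147 genes took 0.125% of this library and 0.0398% to 0.0551% of the others. This comparison is a description with no test, since the library was singled out after its values were known. As the RNA came from bulk cultures, more RNA of a kind per cell and more cells that hold it cannot be told apart. With 1 such library, a difference in the cells and one in its preparation cannot be told apart either.

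Over all classes together, the excess was not carried by the 4 most counted genes alone. These 4 genes summed to 855 CPM in DHX35-dTAG DMSO replicate 1 and to between 265 and 335 CPM in the others, a log2 ratio to the median of 1.52. The other 143 genes summed to 326 CPM, against 149 to 177 CPM, a log2 ratio of 0.99. Within the Cajal body class, however, most of the 480 CPM came from Scarna2 (385 CPM) and Scarna6 (70.7 CPM). No other gene of that class exceeded 9.90 CPM in this library, so the class sum follows those genes. Snora73b gave 252 of the 364 CPM of the H/ACA genes. Of the 53 genes tested, 36 were higher in this library than in each of the other 7, and 4 were lower than in each of them. Across all 16371 genes tested, 30.3% were above and 29.5% below the other 7 in the same library. By class, 23 of 33 C/D genes, 9 of 15 H/ACA genes and 4 of 5 Cajal body genes were above. Below were 1 C/D, 3 H/ACA and 0 Cajal body genes. The median log2 ratio to the median of the other 7 was 0.67 over the 53 genes and 0.0044 over all genes tested. Within the 53 genes, the median was 0.96 for C/D, 0.39 for H/ACA and 1.14 for Cajal body genes. Each of the other 7 libraries was highest of the 8 for between 0 and 6 of the 53 genes.

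**Figure D2:**
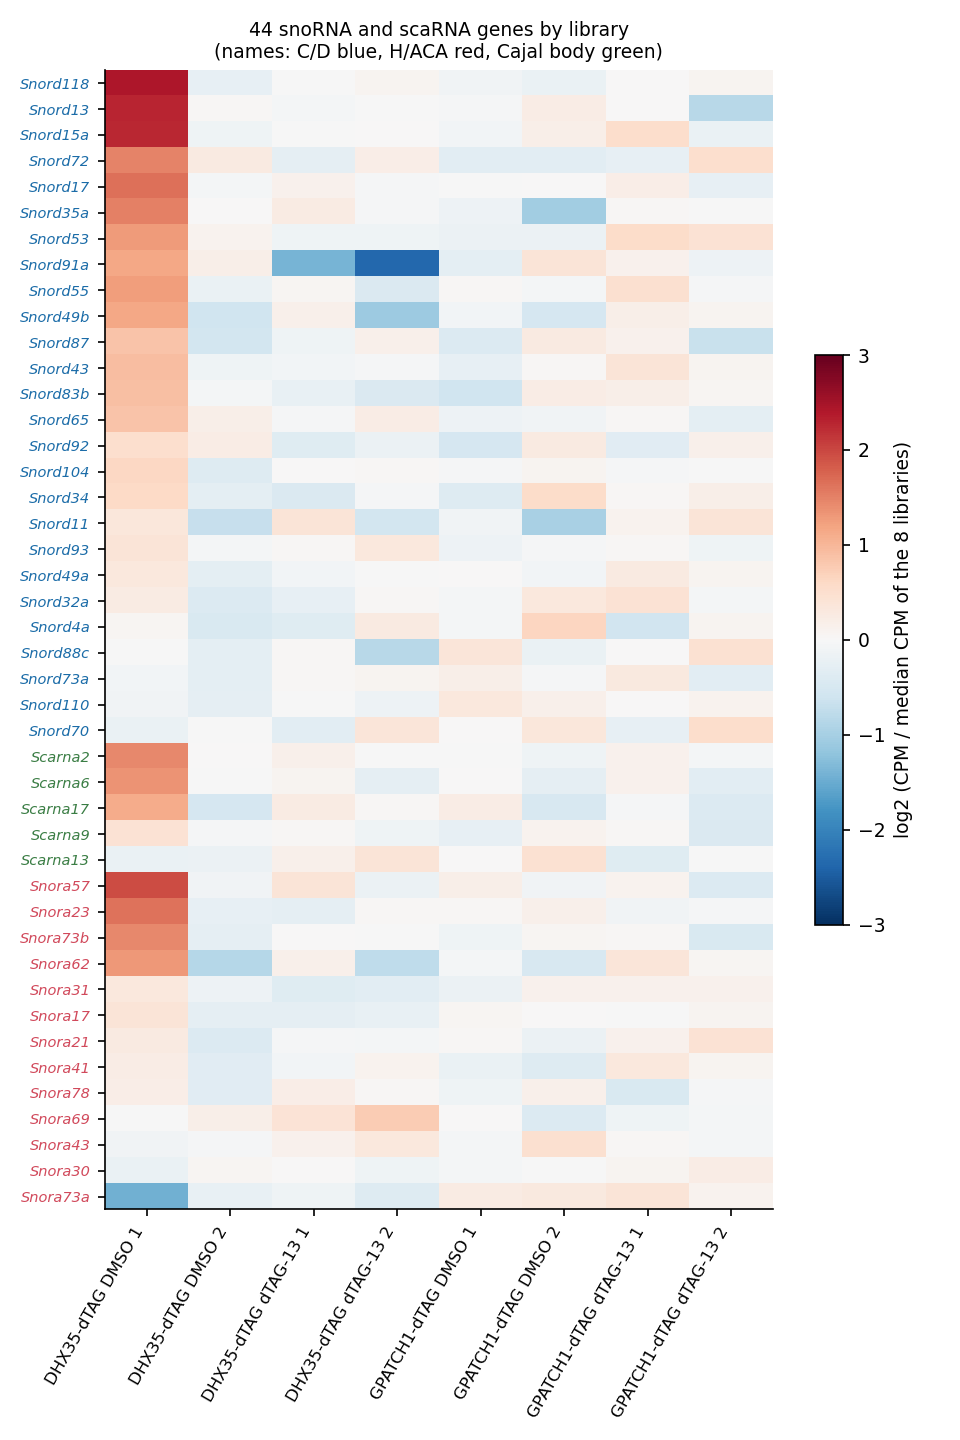
Each row is 1 of the 44 genes with a mean of at least 1 CPM and each column 1 library, coloured by log2 of its CPM over the gene's median across the 8 libraries (red higher, blue lower). The first column, DHX35-dTAG DMSO replicate 1, is red for most genes, with Snora73a the one strongly blue row, and Snord91a is blue in both dTAG-13 libraries of DHX35-dTAG cells.

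Among the 53 genes tested, a list of rRNA processing snoRNAs, on which Snord13 was placed too, held the highest ratio (Snord118) and the lowest (Snora73a). Similar ratios were found outside this list, at 2.27 for Snord15a and -1.545 for Snord42b, the latter from 3 counts. Snord118 (U8), which is needed to mature the 5.8S and 28S ribosomal RNAs, had 30.0 CPM in DHX35-dTAG DMSO replicate 1 and 4.76 CPM in replicate 2. Its levels were 5.56 and 5.93 CPM in dTAG-13 in the same line, 5.18 and 4.86 CPM in DMSO and 5.64 and 5.91 CPM in dTAG-13 in GPATCH1-dTAG cells. The 7 other libraries thus spanned 1.25-fold, while the first was 5.40 times their median (log2 ratio 2.43, 95% exact Poisson interval 2.29 to 2.57 for the count in that library). Intervals of this kind cover counting error only and take the median of the other 7 as known.

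Snord13 (U13), which helps to place an acetyl group on the 18S ribosomal RNA, showed the same pattern at a lower level. It had 12.6 CPM in that library and 2.64 CPM in the other DMSO library of the line, 2.48 and 2.56 CPM in its dTAG-13 libraries, 2.52 and 3.01 CPM in GPATCH1-dTAG cells in DMSO, and 2.60 and 1.44 CPM in dTAG-13. The log2 ratio was 2.29 (2.07 to 2.51). The lowest of the 8 was GPATCH1-dTAG dTAG-13 replicate 2, and the other 6 lay between 2.48 and 3.01 CPM. Snord118 (plus strand, chr11:69073427-69073561) and Snord13 lie in no host gene on their strand in GENCODE M21. The sequence of Snord118 is given since it had the largest ratio, with C and D boxes in capitals as above.
Snord118: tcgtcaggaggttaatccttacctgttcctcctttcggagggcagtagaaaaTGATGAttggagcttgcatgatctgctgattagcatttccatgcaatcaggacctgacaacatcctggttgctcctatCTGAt

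Snora73b and Snora73a, the U17 pair of the Rcc1 and Snhg3 locus, went in opposite directions. Snora73b had 252 CPM in DHX35-dTAG DMSO replicate 1, 76.7 CPM in replicate 2, 92.7 and 91.7 CPM in dTAG-13, 83.8 and 96.0 CPM in GPATCH1-dTAG cells in DMSO, and 94.7 and 66.9 CPM in dTAG-13. The first value was above the other 7, which lay between 66.9 and 96.0 CPM, with a log2 ratio of 1.46 (1.41 to 1.51). Snora73a had 1.03 CPM in the first library, 2.38 CPM in replicate 2, 2.56 and 2.12 CPM in dTAG-13, and between 3.03 and 3.66 CPM in the 4 libraries of GPATCH1-dTAG cells. Its log2 ratio was -1.55 (-2.42 to -0.80), from 14 counts against 24 to 59 in the other libraries. Rcc1, taken as the host of both because it had more counts, had a log2 ratio of 0.33. Snhg3, which spans them too, had one of -0.56 and was below the other 7.

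The pair is nearly identical in sequence, so that reads could be assigned to either copy or to neither, and their separate values are uncertain. Over 205 aligned positions, 198 were identical (96.6%). Counted from 1 at the 5′ end, with the base of Snora73b first, the differences were A3G, A54G, G111A, C164T, A203G, A204T and A205T. Snora73a also covers part of an exon of Snhg3, while Snora73b meets only an exon of a gene on the opposite strand. Capitals mark the differing bases of Snora73b (minus strand, chr4:132352322-132352526) and Snora73a (minus strand, chr4:132352775-132352979).
Snora73b: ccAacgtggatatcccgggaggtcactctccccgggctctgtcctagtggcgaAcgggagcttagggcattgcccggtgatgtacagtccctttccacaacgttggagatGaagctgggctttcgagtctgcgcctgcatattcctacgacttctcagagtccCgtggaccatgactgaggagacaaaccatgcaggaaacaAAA
Snora73a: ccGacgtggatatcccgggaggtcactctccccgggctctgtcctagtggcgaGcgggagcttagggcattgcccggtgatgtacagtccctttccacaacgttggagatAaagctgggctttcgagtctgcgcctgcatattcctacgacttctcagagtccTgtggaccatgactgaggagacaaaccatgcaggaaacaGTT

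Of 14 RNAs on the list of rRNA processing snoRNAs, 9 were in the tables, 5 of these were at 0, and the 4 tested were the ones described above. U3, the most abundant RNA of this kind, is counted under Rnu symbols and so fell outside the rule. Rnu3a had 542 CPM in DHX35-dTAG DMSO replicate 1, against 75.1 to 109 CPM in the other libraries, a log2 ratio of 2.62. Of the other U3 genes tested, Rnu3b1 had 8.72 CPM against 2.21 to 3.42 CPM (1.52), and Rnu3b4 had 0.665 CPM against 0.682 to 1.37 CPM (-0.33). These genes share much of their sequence, so their separate values are uncertain.

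The guides for ribosomal RNA also included several with large ratios. Snord15a had 32.1 CPM in DHX35-dTAG DMSO replicate 1 and between 5.83 and 9.67 CPM in the other 7 libraries (log2 ratio 2.27, 2.13 to 2.40). Snora57, an H/ACA guide for the 18S ribosomal RNA, had 30.8 CPM against 5.98 to 10.3 CPM (log2 ratio 2.07, 1.93 to 2.21). Snora23, an H/ACA guide for the 28S ribosomal RNA, had 32.8 CPM against 8.72 to 11.8 CPM (log2 ratio 1.68, 1.54 to 1.82). Snord72 had 4.29 CPM against 1.23 to 2.16 CPM (log2 ratio 1.72, 1.32 to 2.09), from 58 counts. Snord17 had 146 CPM, against 38.9 to 52.9 CPM (log2 ratio 1.68, 1.61 to 1.74).

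Other guides of the same classes had smaller ratios. Snord104 had 14.0 CPM against 6.94 to 9.73 CPM (log2 ratio 0.64), and Snora17 had 12.2 CPM against 7.69 to 9.87 CPM (0.39). Snora78 had 9.46 CPM against 6.01 to 9.40 CPM (0.23), so that it exceeded the highest other library by little. At the lower end, Snord110 (2.73 CPM, log2 ratio -0.12), Snora43 (4.95 CPM, -0.14), Snord70 (3.55 CPM, -0.20) and Snora30 (1.18 CPM, -0.21) had counting intervals that crossed a ratio of 1. Snora57 (minus strand, chr19:8888538-8888685) and Snora23 (plus strand, chr7:110046364-110046547) are shown as the H/ACA guides with the largest ratios, with the last ACA in capitals.
Snora57: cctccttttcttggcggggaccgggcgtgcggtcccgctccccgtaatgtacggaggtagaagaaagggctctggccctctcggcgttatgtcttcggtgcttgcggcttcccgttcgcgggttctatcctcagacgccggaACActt
Snora23: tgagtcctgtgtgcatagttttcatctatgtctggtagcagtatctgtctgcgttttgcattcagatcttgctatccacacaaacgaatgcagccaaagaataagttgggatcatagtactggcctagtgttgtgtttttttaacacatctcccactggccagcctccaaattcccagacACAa

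The guides for spliceosomal RNAs were divided as well. Scarna2 had 385 CPM in DHX35-dTAG DMSO replicate 1 and 144 CPM in replicate 2, 159 and 141 CPM in dTAG-13, 141 and 130 CPM in GPATCH1-dTAG cells in DMSO, and 157 and 137 CPM in dTAG-13. Its log2 ratio was 1.45 (1.41 to 1.49), and the other 7 libraries lay between 130 and 159 CPM. Among the other guides for U2, Scarna9 had 9.90 CPM against 5.47 to 7.87 CPM (log2 ratio 0.46), whereas Scarna13, a guide for pseudouridylation, had 9.09 CPM within a range of 8.12 to 14.3 CPM (-0.21). Of the guides for U6, Snord7 had 1.55 CPM against 0.513 to 0.906 CPM (1.11), while Snord8 had 0.517 CPM, near the lowest of the other 7, from 7 counts. Scarna8 and Snord67, which also guide these RNAs, did not pass the filter, with at most 0.619 and 0.0884 CPM in a library.

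The guides that act on U4, U5 and U12 were both higher. Scarna6 had 70.7 CPM in DHX35-dTAG DMSO replicate 1 and 27.7 CPM in replicate 2, 29.5 and 23.1 CPM in dTAG-13, 28.0 and 23.3 CPM in GPATCH1-dTAG cells in DMSO, and 30.3 and 22.3 CPM in dTAG-13, a log2 ratio of 1.35 (1.259 to 1.44). Scarna17 had 3.69 CPM against 1.22 to 2.05 CPM (log2 ratio 1.14, 0.71 to 1.54). Scarna10, a further guide for U5, was at 0 in all libraries and partly covers exons of Ncapd2 and Gm28967. Over all lists, 7 of 13 guides for U2 or U6 and 3 of 7 for U1, U4 or U5 were in the tables, and 5 and 2 of them were tested.

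The median host gene did not share the excess. Of the 44 genes with a mean of at least 1 CPM, 36 lay within a tested host gene on the same strand, and 27 of these had a higher ratio than their host. That mean includes the high library, which helped genes near the limit to pass. Examples are Snord87 and Snord11, with medians of 0.94 and 0.97 CPM in the other 7, and both had a higher ratio than their host. The median log2 ratio was 0.55 for the 36 genes and 0.02 for their 28 hosts. The hosts ranged from -1.11 (Cep295, host of Scarna9) to 1.33 (Snhg9, host of Snora78). The 8 genes with no host on their strand in GENCODE M21 had a median of 1.29, with a range of -0.14 to 2.43. The lack of an annotated host does not show that these genes have promoters of their own. Members of the same host also differed from each other. In Rpl13a, which encodes a ribosomal protein and had a ratio of -0.09, the log2 ratios were 1.52 for Snord35a (1.05 to 1.96), 0.63 for Snord34 and 0.29 for Snord32a (-0.11 to 0.68). In Wdr43, they were 1.39 for Snord53 (1.07 to 1.70) and 0.67 for Snord92 (-0.02 to 1.29), while in Rpl3 Snord43 and Snord83b had 0.97 and 0.96. In the noncoding host 2410006H16Rik, which had a ratio of 0.49, they were 1.24 for Snord49b, 0.90 for Snord65 and 0.33 for Snord49a. These pairs were chosen after their values were seen. Across the 44 genes, the log2 ratio had a Pearson's r of 0.12 and a Spearman's rho of 0.21 with gene length (68 to 414 bases). These genes share the same 8 libraries, so the correlation is a description.

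**Figure D3:**
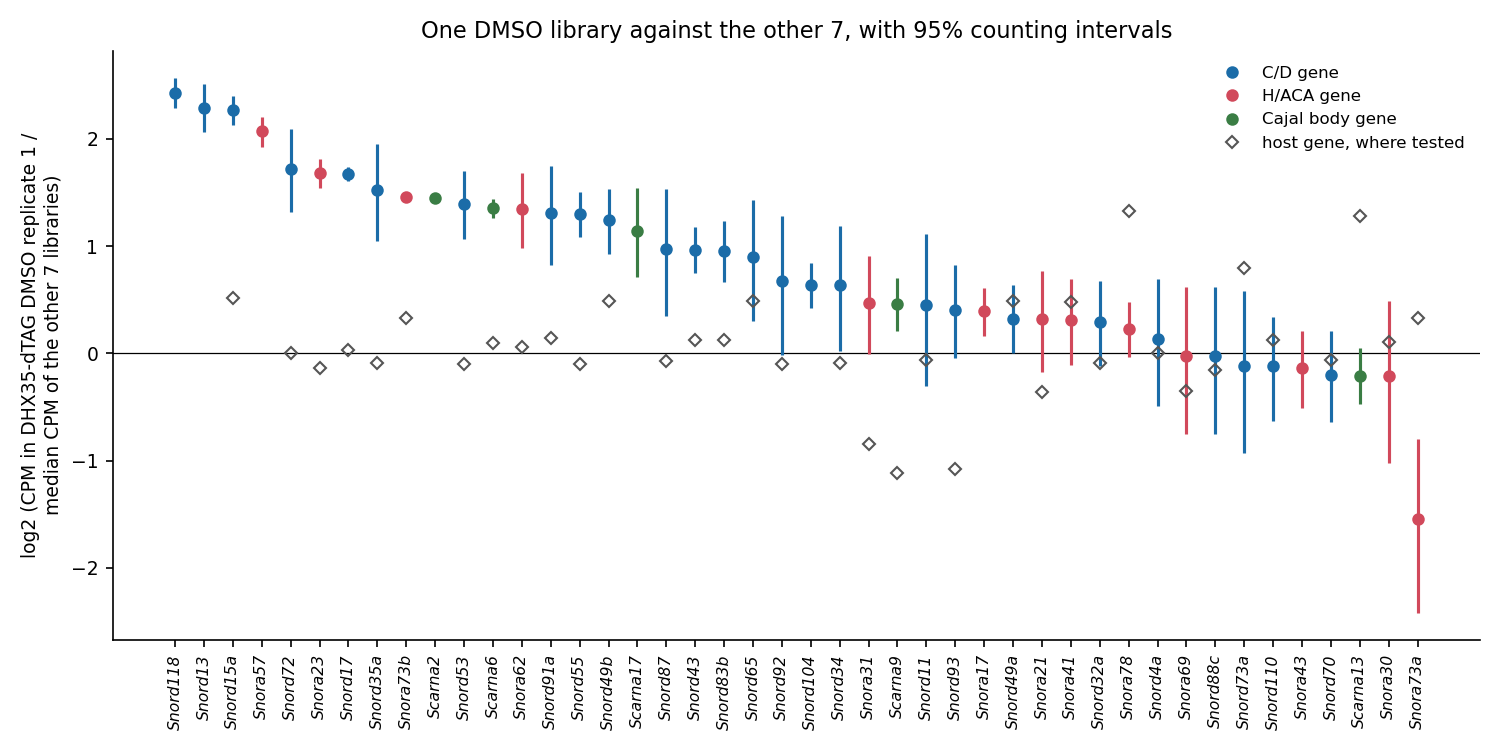
Log2 ratio (vertical axis) of the CPM in DHX35-dTAG DMSO replicate 1 to the median of the other 7 libraries for each of 44 genes, coloured by class, with vertical lines for the 95% exact Poisson interval of the count in that library and open diamonds for the host gene where it was tested. Ratios run from 2.43 for Snord118 to -1.55 for Snora73a, and most diamonds lie near 0.

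Proteins that bind these RNAs and other small RNAs are given for comparison, from lists of known members. Of the C/D core proteins, Fbl, the methyltransferase fibrillarin, had a log2 ratio of 0.21, Nop56 of 0.12, Nop58 of -0.07 and Snu13 of -0.53. Snu13 had 108 CPM, below the 144 to 166 CPM of the other 7 libraries. Of the H/ACA core proteins, Dkc1, the pseudouridine synthase dyskerin, had -0.07, Gar1 0.03, Nhp2 0.60 and Nop10 -1.65. Nop10 thus had 19.7 CPM in DHX35-dTAG DMSO replicate 1 against 49.2 to 69.1 CPM in the other 7. Medians were 0.15 for 12 assembly and transport factors, 0.08 for 3 Cajal body proteins (0.05 for Coil, the scaffold coilin), and -0.08 for 8 factors of debranching and trimming. Of the 13 Snhg host genes tested, 8 were above and 1, Snhg3, was below the other 7 libraries, with a median of 0.14. Snhg9 (1.33), Snhg20 (1.07), Snhg16 (0.75) and Snhg15 (0.71) had the highest ratios, Gas5 had 0.42, Snhg12 0.05 and Snhg1 -0.11. Among 16 other small RNAs, which include U3, 9 were above and 3 below the other 7 libraries, with a median of 0.68. The U12 snRNA gene Rnu12 had a ratio of 2.26, the telomerase RNA Terc 0.72, the 7SK RNA gene Rn7sk 0.65 and the Y RNA gene Rny1 -0.09. The 3 below were Rnu73b (-1.39), Rnu1a1 (-0.33) and Rnu3b4 (-0.33). No gene of these protein, host and small RNA lists passed the adjusted threshold in any of the 5 comparisons below (edgeR).

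Depletion of DHX35 was then compared with DMSO in the same line. The 53 genes gave 14 positive and 39 negative log2 fold changes, with a median of -0.44 against -0.0077 for all genes tested. The median was -0.55 for C/D genes, -0.01 for H/ACA genes and -0.34 for Cajal body genes. The log2 fold change of Snord118 was -1.58 (standard error 0.66), and it was -1.57 (0.63) for Snord13, -1.50 (0.62) for Snord15a, -0.82 (0.35) for Scarna2 and -0.83 (0.43) for Snora73b. However, 0 of the 53 genes passed the threshold, as did 0% of all genes, and the lowest adjusted p was 0.71 (edgeR, quasi-likelihood, with Benjamini-Hochberg adjustment over 16371 genes). At an unadjusted p under 0.05, 1 gene was higher and 10 were lower, against 5.39% of all genes in either direction. DESeq2 also called 0 of the 53.

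These differences rested on 1 of the 2 DMSO libraries. Without replicate 1 in DMSO, 57 genes were tested, 35 were positive and 22 negative, the median was 0.10, and 0 passed the threshold (0.0117% of all genes). The log2 fold change was then 0.06 for Scarna2 (standard error 0.09), 0.27 for Snora73b (0.13), 0.27 for Snord118 (0.20) and -0.06 for Snord13 (0.32). Without replicate 2 in DMSO, so that the high library alone stood for DMSO, 24 of 55 genes passed the threshold, 23 of them lower and Snora73a higher (edgeR). In that fit the single DMSO library is assumed to vary like the other groups. The 24 genes were 15 C/D, 6 H/ACA and 3 Cajal body genes, and 4949 of 17175 genes in all passed (28.8%). There the value was -2.38 for Snord118 (standard error 0.14) and -1.36 for Scarna2 (0.09). Keeping every gene with a count, without the expression filter, called 11 of 72 genes, all lower, and 1.06% of all genes.

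**Figure D4:**
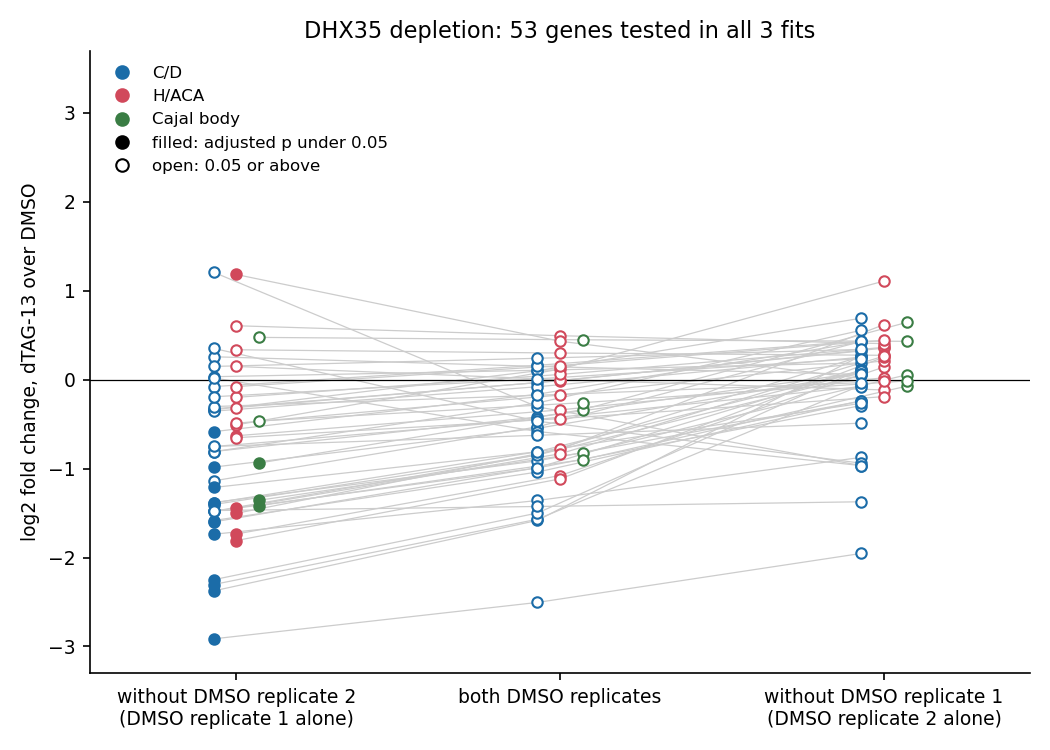
Log2 fold change on DHX35 depletion (vertical axis, dTAG-13 over DMSO) of 53 genes in 3 fits, joined by grey lines and coloured by class, with filled points for an adjusted p under 0.05 (edgeR). With replicate 1 as the only DMSO library the points lie mostly below 0 and many are filled, and with replicate 2 as the only DMSO library they lie around 0 and none is filled.

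Snord91a kept a lower level in dTAG-13 against either DMSO library of DHX35-dTAG cells, and it was chosen after its values were seen, as was Snord98. It had 41 and 24 counts in DMSO and 6 and 3 in dTAG-13, or 3.03 and 1.54 CPM against 0.513 and 0.265 CPM. In GPATCH1-dTAG cells it had 1.10 and 1.77 CPM in DMSO and 1.49 and 1.22 CPM in dTAG-13. The log2 fold change was -2.50 (standard error 0.52) on DHX35 depletion and -1.95 (0.53) without replicate 1 in DMSO, with adjusted p-values of 0.71 and 0.75 (edgeR). Without replicate 2 it was -2.91 (0.46, adjusted p = 0.00011, edgeR), where 28.8% of all genes were called. Its host gene Tsr1 had a log2 ratio of 0.14 in the library that stood apart. Snord98 (65 bases, host Ccar1) had 1.11 and 1.03 CPM in DMSO and 0.342 and 0.442 CPM in dTAG-13, a log2 fold change of -1.43 (0.41) that did not pass either (adjusted p = 0.71, edgeR). Scarna13 was the one gene of the 53 that was higher at an unadjusted p under 0.05, with a log2 fold change of 0.45 (0.19, adjusted p = 0.71, edgeR).

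Depletion of GPATCH1 was compared with DMSO in the same way. The 53 genes gave 33 positive and 20 negative log2 fold changes with a median of 0.08, against 0.0029 for all genes. The values ranged from -0.52 for Snord4a to 1.08 for Snord37, both named only as the ends of the range, and 48 of the 53 were within 0.5 of 0. Scarna2 was at 0.11 (standard error 0.35), Snord118 at 0.20 (0.71), Snora73b at -0.15 (0.43), Snord17 at -0.01 (0.43) and Scarna13 at -0.41 (0.19). None of the 53 genes passed the threshold (0% of all genes, lowest adjusted p = 1.00, edgeR), and 0 of them had an unadjusted p under 0.05, against 2.97% of all genes. DESeq2 also called 0. Without DHX35-dTAG DMSO replicate 1, which enters the shared estimate of the spread, 0 of 57 genes were called (0.299% of all genes, lowest adjusted p = 0.33, edgeR), and 4 were higher and 1 lower at an unadjusted p under 0.05, as were 1432 of all 17037 genes in either direction. The 4 libraries of GPATCH1-dTAG cells alone also called 0 of 50 genes, and 127 of 15815 genes in all. The standard errors share 1 estimate of the spread with DHX35-dTAG cells. The 4 levels of Snord118 in GPATCH1-dTAG cells lay between 4.86 and 5.91 CPM.

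Over both lines together, dTAG-13 gave a median log2 fold change of -0.17 for the 53 genes, with 0 called (0% of all genes, edgeR), 0 at an unadjusted p under 0.05 (3.59% of all genes) and 0 by DESeq2. The median was 0.05 without DHX35-dTAG DMSO replicate 1. The difference between the responses, GPATCH1 minus DHX35, had a median of 0.56 and 0 genes called (0% of all genes, edgeR), with 4 higher and 1 lower at an unadjusted p under 0.05 (3.91% of all genes). DESeq2 called 0 of the 53 genes. Without that library the median was -0.01. Without DHX35-dTAG DMSO replicate 2, 21 of 55 genes were called, 20 of them higher, where 20.9% of all genes were called.

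The lines were finally compared in DMSO, where GPATCH1-dTAG minus DHX35-dTAG gave a median log2 difference of -0.35 over the 53 genes, 12 positive and 41 negative. No gene of the 53 passed the threshold, against 0.0916% of all genes (lowest adjusted p = 0.35, edgeR), and DESeq2 called 0. At an unadjusted p under 0.05, 1 was higher and 11 were lower, which is 12 of 53, against 12.9% of all genes. The higher one was Snora73a, with a log2 difference of 0.95 (standard error 0.34). Without DHX35-dTAG DMSO replicate 1 the median was 0.15, with 0 called (0.71% of all genes), and without replicate 2 it was -0.75, with 22 of 55 called, 21 of them lower, where 34.3% of all genes were called.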

How the data were processed

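RNA of 8 libraries was depleted of ribosomal RNA and made into stranded libraries. Per the paper and the submitters' processing notes, the authors checked reads with FastQC 0.11.9, trimmed them with Trim Galore 0.6.6, aligned them with STAR 2.7.5c to mm10 and hg19, and list DESeq2 1.26.0. Each library has 1 deposited table, in which the authors give unnormalized read counts by gene symbol. The counting program, annotation and strand setting are not given in the sources used here, so antisense, overlapping and near-identical genes are uncertain. Groups were taken from the labels.

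Counts were analysed with edgeR 4.0.16 (R 4.3.3): TMM scaling, filterByExpr, quasi-likelihood fits of all 8 libraries with 1 term per group (line and treatment for both lines together), and Benjamini-Hochberg adjustment over 16371 genes at 0.05. A standard error is |log2 fold change| over the root of F. The fits were tested on simulated counts. CPM were computed with the TMM-scaled library size, between 11307356 and 16138412. Genes were placed with GENCODE M21, where 144 of the 147 symbols have 1 entry and 3 have 2 entries, which were merged. A host is the same-strand gene that spans a member, the one with the most counts where there were several. Named genes were the 6 highest of each class by mean CPM, the 6 highest and 6 lowest ratios among genes with a mean of at least 1 CPM, any called gene and the members of 4 lists of guides and processing RNAs. Proteins, hosts and other small RNAs were given as lists with examples. Replicates were no duplicates, with a chi-square of 5.32 to 132 per gene. Replicate numbers were shared by label only. The members and lists were chosen with earlier results of these data known. Alternatives were DESeq2 1.42.0, its size factors in edgeR, 2 other filters, a replicate block, the 4 libraries of a comparison alone, and each library left out in turn.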

Additional observations from a re-analysis of the deposited data

Results flagged for a closer look

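Over the 8 libraries, the highest value of each class sum lay far from the next one, relative to the whole range. This gap was 0.873 of the range for the C/D genes, 0.863 for the H/ACA genes and 0.893 for the Cajal body genes, in each case for DHX35-dTAG DMSO replicate 1. These gaps describe a library that was already singled out, and they are no test. The 8 libraries are also of 4 groups, while the limit that marks such gaps assumes 1 group and marks about 1 in 20 by chance. The same library had the lowest share of mitochondrial mRNA counts (0.272%), whose part in the result was not tested.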

How the results depend on the processing

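The log2 ratio of DHX35-dTAG DMSO replicate 1 to the median of the others stayed positive for each class under every alternative run. With each other library left out it ranged from 1.38 to 1.40 for C/D, 1.259 to 1.303 for H/ACA and 1.34 to 1.35 for Cajal body genes, and total counts without TMM moved the H/ACA value from 1.27 to 1.45. Without the expression filter, 11 members were called for DHX35 depletion (1.06% of all genes), 9 across both lines (0.245%), 8 for the difference between the responses (0.429%) and 14 for the line difference (3.02%). With libraries left out in turn, members called ranged from 0 to 24 for DHX35 depletion, 0 to 21 for the difference between the responses and 0 to 22 for the line difference, and were 0 in each fit for GPATCH1 depletion and across both lines. Only the fit without DHX35-dTAG DMSO replicate 2 called any, and it called 28.8%, 20.9% and 34.3% of all genes in the first 3 of these, and 0.297% for GPATCH1 depletion. No member was called in any of the 5 comparisons with DESeq2, its size factors, at least 10 counts in every library, or, for the 3 comparisons of 2 groups, with the 4 libraries of the comparison alone. Of all 16371 genes, DESeq2 called 1 for DHX35 depletion, 0 for GPATCH1 depletion, 4 across both lines, 9 for the difference between the responses and 46 for the line difference.

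With a library left out, log2 fold changes on DHX35 depletion ranged from -1.36 to 0.055 for Scarna2, -1.44 to 0.27 for Snora73b, -1.60 to 0.11 for Snord17, -2.38 to 0.27 for Snord118, -2.25 to 0.12 for Snord15a and -0.018 to 1.18 for Snora73a, and each changed sign only without replicate 1 in DMSO. On GPATCH1 depletion, where no value was called, they ranged from -0.42 to 0.076 for Snora73b, -0.25 to 0.19 for Snord17, -0.20 to 0.24 for Scarna6, -0.24 to 0.49 for Snord15a and -0.15 to 0.12 for Snora73a, which was also 0.0043 without the filter. The replicate block called 0 members in each comparison. Replicate numbers were shared by label only, since the correlation of replicate differences between groups lay between 0.037 and 0.23 and exceeded 0.1 in 2 of 6 pairs of groups. With the block, the count of genes on DHX35 depletion at an unadjusted p under 0.05 went from 882 to 1323.

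Depth limited the genes with few counts: 39 of the 53 had at least 10 counts in every library, and a gene at 0 allows up to 3 counts. Levels per kilobase without DHX35-dTAG DMSO replicate 1 were added after seeing the data.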
